A study of Homo sapiens with 16 samples.

Results

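Transcripts of IMR32 cells held for 24 h in 4 µM alectinib were compared with those of IMR32 cells held in DMSO, the vehicle. The comparison used the 4 alectinib libraries and the 4 DMSO libraries, which are 8 of the 16 libraries of the series and were chosen by their labels alone. All genes that passed an expression filter were examined, 22433 of the 58735 genes in the count table. IMR32 is an established human neuroblastoma line with an amplified MYCN gene, and the labels give the genotype as WT in every group. The other libraries served here only as a second background. They came from cells in 4 µM alectinib plus 1.25 µM indisulam, called the combination, and from cells in 1.25 µM indisulam alone, with 4 libraries each. The libraries of a group are numbered, but no label says that they came from separate cultures, so the p-values speak only of the spread among the libraries, and part of that may be technical. A single cell line was studied, at 1 dose of each drug and 1 time.

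Alectinib blocks ALK, a receptor tyrosine kinase. ALK sits at the surface of developing sympathetic neurons, passes growth signals to the ERK and AKT pathways when its ligand binds, and is a driver in part of neuroblastomas. Neuroblastoma arises from sympathoadrenal precursors, and most of its cells keep a circuit of adrenergic transcription factors, such as HAND2, in which MYCN takes part. The title of the series sets kinases beyond ALK and the splicing of RNA beside this, since indisulam leads to the degradation of the splicing factor RBM39. Counts per gene, as analysed here, give transcript levels and not splicing.

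Libraries of the comparison held 56.7 to 60.7 M counts (M, 1e6), apart from alectinib replicate 1 with 90.2 M. Levels are given in CPM, counts per 1e6 counts after scaling between libraries, and levels under 1 CPM rest on few reads. On principal component 1 of these libraries, which held 35.7% of the variance, the alectinib libraries lay on one side and the DMSO libraries on the other. DMSO replicate 3 stood apart on component 2 (13%). Mitochondrially encoded genes took 6.73% of the counts in alectinib replicate 1 and 5.13% to 5.39% in the other alectinib libraries, against 5.23% to 5.77% in DMSO. The labelled cell type was checked against its markers, and all 13 sympathoadrenal markers passed the filter, HAND2 at 533 to 648 CPM in alectinib and 676 to 749 CPM in DMSO. Of the markers of other cells, 2 of 8 epithelial, 1 of 8 blood, 1 of 5 endothelial and 7 of 10 fibroblast genes passed it, and CDH1, KRT18, CD3E and HBB had between 0 and 6 counts over the 8 libraries.

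Alectinib changed the level of 22.3% of the tested genes, mostly by a small step. The quasi-likelihood test of edgeR called 5009 genes, where a call means a p under 0.05 after Benjamini-Hochberg adjustment. Of these, 2242 were higher (9.99%) and 2767 lower (12.3%) in alectinib than in DMSO. The median size of a called change was 0.44 on the log2 scale, where 1 is a doubling, and 64.7% of the called genes changed by less than 1.5-fold. Over all levels, larger steps went mostly upward: 629 genes (2.8%) were at least 2-fold higher and 123 (0.548%) at least 2-fold lower. Under 1 CPM these counts were 185 and 36 for protein-coding genes, and 284 and 20 for noncoding genes and pseudogenes. From 5 CPM up, protein-coding genes had no such excess, with 20 and 23 at 5 to 20 CPM, 2 and 12 at 20 to 100 CPM, and 0 and 3 above. Noncoding genes and pseudogenes had 7 and 0 at 5 to 20 CPM. The balance of the small changes depended on scaling. Under upper-quartile scaling 3285 genes were called higher and 1848 lower, so that 64% of the calls were higher, against 44.8% under TMM scaling, which all other values here use. The median log2 change of all genes was 0.01 under TMM and 0.09 under upper-quartile scaling. In the plot of change against level, most upward changes of high fold lie among genes of low level, and HSPA6, an inducible heat shock protein, stands far above the rest.

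**Figure D1:**
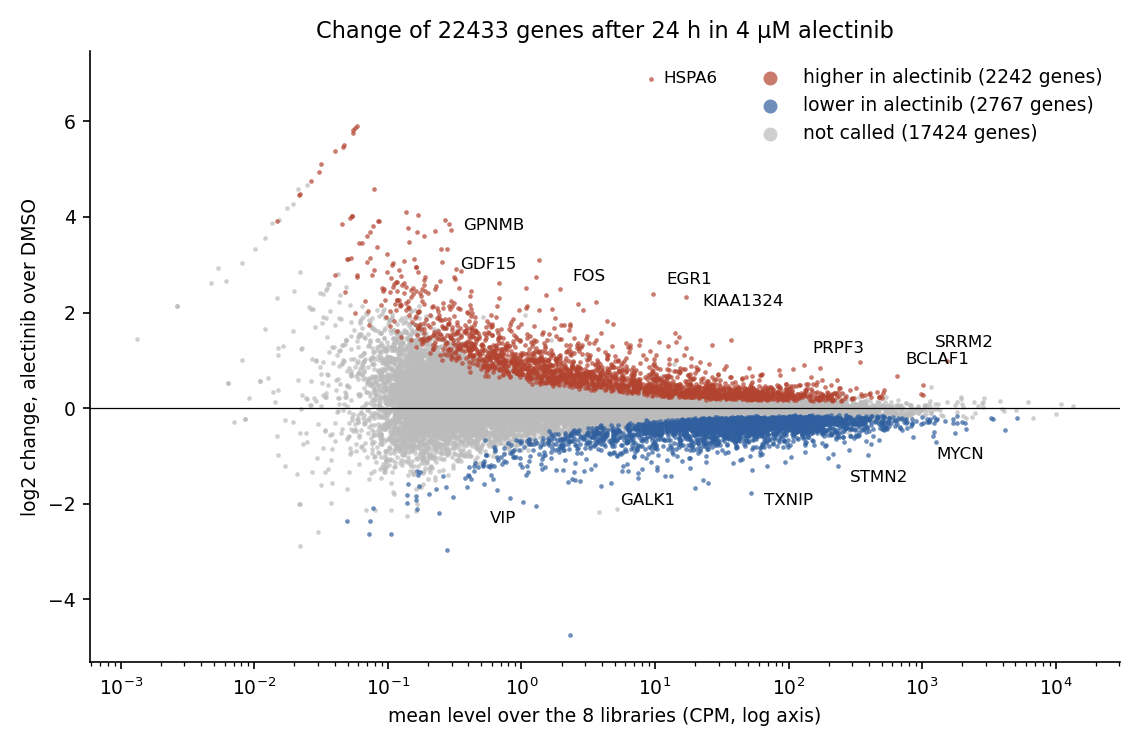
Each point is 1 of 22433 genes, with its mean level over the 8 libraries in CPM on a log axis across and its log2 change, alectinib over DMSO, up the page. HSPA6 is the highest point at 6.90, and the lowest, BOLA2B at -4.74, was picked out after its values were seen and rests on a single DMSO library of 17.5 CPM, since all the other libraries lie between 0 and 0.279 CPM and a near-identical copy of the gene exists.

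Receptor tyrosine kinases were led by ALK itself, whose mRNA was lower in alectinib. With it fell EGFR, FGFR2, PDGFRB and PDGFRA, among the 6 lower and 1 higher of the 19 tested receptors and ligands. The median log2 change of this list was -0.23, against 0.01 over all genes tested. ALK (ENSG00000171094, chromosome 2, 29192774 to 29921566, minus strand, GRCh38) had 153, 165, 188 and 172 CPM in the alectinib libraries, against 248, 254, 234 and 243 CPM in the DMSO libraries. No alectinib library reached the lowest DMSO library, and the log2 change was -0.53 ± 0.07, adjusted p = 7.55e-06. In bulk RNA, fewer cells with a transcript and less of it per cell cannot be told apart, here and in every result that follows. ALKAL2, which encodes a ligand of ALK, had 1.70, 1.72, 1.30 and 1.18 CPM in alectinib, against 1.36, 1.73, 1.46 and 1.36 CPM in DMSO. Its groups overlapped throughout, and it was not called (0.01 ± 0.17, adjusted p = 0.984). The other ligand gene, ALKAL1, had no counts, and LTK, the nearest relative of ALK, had 49 counts over the 8 libraries and was not tested.

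EGFR, the receptor of epidermal growth factor, had 42.5, 41.2, 48.9 and 48.6 CPM in alectinib, against 78.2, 78.4, 82.1 and 81.3 CPM in DMSO. The groups were far apart, and the change was -0.82 ± 0.08, adjusted p = 1.05e-07. Its antisense neighbour EGFR-AS1 overlaps its exons, and it is not known whether the counting used strand, so this count is uncertain.

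FGFR2, a receptor of fibroblast growth factors, averaged 23.2 ± 3.11 CPM in alectinib and 36.99 ± 2.42 CPM in DMSO (SD, n = 4 each), a log2 change of -0.68 ± 0.09 (SE). The receptors of platelet-derived growth factor had smaller changes, -0.54 ± 0.11 for PDGFRB and -0.30 ± 0.08 for PDGFRA. In neither case did the groups overlap. RET, which alectinib is also known to inhibit, was at -0.38 ± 0.16, adjusted p = 0.102, and was called only in a fit of the 8 libraries alone (adjusted p = 0.0433). Relatives of the receptors that fell were not called: FGFR1 was at 0.13 ± 0.08, NTRK2 at -0.29 ± 0.18 and KIT at -0.12 ± 0.13. Missing the threshold does not show that these were equal in the groups. IGF1R, the receptor of insulin-like growth factor, was at 0.12 ± 0.07 and was called under upper-quartile scaling alone (0.20). The 1 receptor called higher was ERBB3, a neuregulin receptor, with 0.372, 0.182, 0.912 and 0.295 CPM in alectinib, against 0.261, 0.0539, 0.142 and 0.174 CPM in DMSO. These groups overlapped, and the call (1.46 ± 0.51, adjusted p = 0.0439) ended without any of 5 single libraries, for example without alectinib replicate 3 (0.85, adjusted p = 0.292).

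MYCN was lower in alectinib, as were 7 of the 13 sympathoadrenal markers, and none of those markers was called higher. Among protein-coding genes above 100 CPM, where many of these genes lie, 33.2% were called lower. MYCN (ENSG00000134323, chromosome 2, 15940564 to 15947007, plus strand) had 1688, 1897, 1869.9 and 1717 CPM in the alectinib libraries, against 2455, 2521, 2298 and 2500.1 CPM in the DMSO libraries. The highest alectinib library lay below the lowest DMSO library, and the log2 change was -0.45 ± 0.06, adjusted p = 1.67e-05. Its relatives MYC and MYCL were under 1 CPM in every library and were not called (0.43 ± 0.32 for MYC and 0.36 ± 0.36 for MYCL). The MXD proteins, which compete with MYC proteins for their partner MAX, moved both ways. MXD3 fell, with 22.5 ± 1.88 CPM in alectinib and 38.7 ± 4.06 CPM in DMSO (SD, n = 4 each; log2 change -0.78 ± 0.12). MXD1 (0.62 ± 0.08) and MXD4 (0.30 ± 0.08) rose, and MAX was at -0.04 ± 0.06 without a call. Exons of MYCN, MXD1, MXD3 and MXD4 overlap other genes, which makes these counts less certain.

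Of 27 adrenergic core transcription factors, 11 fell and none rose (median log2 change -0.20). SOX11, a factor of immature neurons, had 409, 441, 427 and 411 CPM in alectinib, against 523, 549, 533 and 532 CPM in DMSO. Its groups did not overlap (log2 change -0.34 ± 0.05, adjusted p = 6.15e-05), and its exons share bases with AC108025.2. KLF7, a factor of neurite growth, had 125 to 139 CPM in alectinib and 159 to 168 CPM in DMSO (log2 change -0.34 ± 0.06). The steps in this list were small, and none of its members reached a 2-fold change.

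Genes of catecholamine handling and secretory granules fell in 13 of 30 cases (43.3%) and rose in none (median -0.24). Under upper-quartile scaling 9 were called lower. Of all protein-coding genes, 22.4% were lower at 20 to 100 CPM and 33.2% above 100 CPM. MAOA, a monoamine oxidase, averaged 22.8 ± 1.88 CPM in alectinib and 36.9 ± 2.28 CPM in DMSO, a log2 change of -0.70 ± 0.09. VIP, a neuropeptide, had the largest fold of the list at a low level, 0.298 to 0.734 CPM in alectinib and 1.19 to 3.36 CPM in DMSO (log2 change -2.05 ± 0.31). SYT1, the calcium sensor of vesicle release, changed by -0.34 ± 0.06. PCSK1N, an inhibitor of prohormone cleavage, was called at -0.55 ± 0.13 although its groups overlapped at 1 library.

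Neurite and neuronal cytoskeleton genes fell in 14 of 33 cases (42.4%) and rose in none (median -0.18), and 8 of them were called lower under upper-quartile scaling. Of all protein-coding genes above 100 CPM, 33.2% were called lower. STMN2, a microtubule regulator of growing neurites, had 169, 152, 131 and 111 CPM in the alectinib libraries, against 289, 336, 359.9 and 313 CPM in the DMSO libraries. Its libraries were more widely spread in alectinib than in DMSO, in relation to their level, yet clearly apart, with a change of -1.20 ± 0.12, adjusted p = 1.67e-07. ELAVL4, a neuronal RNA-binding protein, averaged 197 ± 18.5 CPM in alectinib and 323 ± 21.5 CPM in DMSO (SD, n = 4 each; -0.72 ± 0.09). The adhesion molecule gene L1CAM changed by -0.45 ± 0.08 and the neurofilament gene INA by -0.32 ± 0.05.

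Genes that mark the mesenchymal state of neuroblastoma cells also fell more often than they rose, 11 and 3 of 25 tested (median -0.28). LUM, a proteoglycan of collagen fibrils, had 1.33, 1.23, 1.33 and 1.09 CPM in alectinib, against 3.61, 3.09, 3.63 and 3.71 CPM in DMSO. Those groups were well separated, with a change of -1.49 ± 0.18, adjusted p = 2.41e-06. The collagen gene COL5A1 changed by -0.72 ± 0.09, the hyaluronan receptor gene CD44 by -0.72 ± 0.10 and VIM, which encodes vimentin, by -0.39 ± 0.07. Of 7 tested fibroblast markers, 4 fell and none rose, COL1A1 among them at -0.69 ± 0.17. In the Schwann and glial list 2 of 5 tested members were higher, ERBB3 (above) and SOX10, a factor of neural crest and glia. SOX10 had 2.12, 2.55, 3.50 and 2.25 CPM in alectinib, against 1.64, 1.42, 0.57 and 1.27 CPM in DMSO, without overlap and with a change of 1.08 ± 0.25, adjusted p = 0.00292. Its exons overlap POLR2F. CD14, a monocyte receptor and the 1 blood marker that passed the filter, was called higher at 1.01 to 1.20 CPM in alectinib and 0.324 to 0.748 CPM in DMSO (0.96 ± 0.24), while PTPRC, the common leukocyte antigen, had 40 counts in all. The part of any change in the mix of cells in these results was not tested.

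Most genes of mitosis and DNA replication fell. Of 68 tested genes of mitosis, 65 fell and none rose (median log2 change -0.39, range -1.04 to -0.18). MYBL2, a transcription factor of late cell cycle genes, had 119, 133, 133 and 132 CPM in the alectinib libraries, against 273, 258, 256 and 279 CPM in the DMSO libraries. The log2 change was -1.04 ± 0.10, adjusted p = 1.05e-07, the largest in the list. MKI67, which encodes the proliferation antigen Ki-67, averaged 677 ± 25.8 CPM in alectinib and 1022 ± 52.6 CPM in DMSO (SD, n = 4 each; -0.59 ± 0.06). ESPL1, the protease that opens cohesin rings at anaphase, changed by -0.70 ± 0.06, and DLGAP5, a spindle protein, by -0.68 ± 0.08.

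DNA replication genes were lower in 51 of 60 cases and higher in none (median -0.43). PCNA, the sliding clamp of the DNA polymerases, had 224, 257, 216 and 225 CPM in the alectinib libraries, against 323, 353, 365 and 344 CPM in the DMSO libraries. Its groups did not overlap, and it changed by -0.59 ± 0.06, adjusted p = 4.57e-07. MCM4, a subunit of the replicative helicase, changed by -0.59 ± 0.06. RRM2, a subunit of ribonucleotide reductase, changed by -0.65 ± 0.07, and UHRF1, which keeps up DNA methylation after replication, by -0.77 ± 0.08. In homologous recombination and Fanconi repair 23 of 40 genes were lower and none higher (median -0.24). FANCG, of the Fanconi core complex, was at -0.83 ± 0.09, the helicase gene BRIP1 at -0.64 ± 0.07, FANCD2 at -0.58 ± 0.07 and its ubiquitin-conjugating enzyme UBE2T at -0.57 ± 0.07.

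Cyclins of G1, their kinases and inhibitors and the E2F factors had 16 of 28 tested members lower and 1 higher (median -0.31). CCND1, which encodes cyclin D1 (ENSG00000110092, chromosome 11, 69641087 to 69654474, plus strand), had 971, 977, 906 and 997 CPM in the alectinib libraries, against 1440.5, 1417, 1413 and 1479 CPM in the DMSO libraries. These groups lay far apart in relation to their spread, and the change was -0.58 ± 0.05, adjusted p = 1.05e-07. Its neighbour LTO1 shares exonic bases with it. CDK2, the kinase of S phase entry, changed by -0.60 ± 0.07, SKP2, a ubiquitin ligase subunit that acts on p27, by -0.55 ± 0.07, and E2F2 by -0.58 ± 0.08. CDKN1B, which encodes p27 itself, was lower by a smaller step, -0.26 ± 0.06. The 1 member called higher, named after its values were seen, was CDKN1A, which encodes p21, an inhibitor of cyclin-dependent kinases, with 197, 235, 214 and 209 CPM in alectinib, against 137, 149, 129.7 and 151 CPM in DMSO (0.60 ± 0.12, adjusted p = 0.000644).

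Ribosome biogenesis genes fell in 18 of 48 cases and rose in none (median -0.17). The lower share was 37.5%, against 33.2% of all protein-coding genes above 100 CPM. The count of 18 depended on the processing, with 6 calls under upper-quartile scaling, 9 without DMSO replicate 3 and 11 without DMSO replicate 4. NOLC1, a nucleolar phosphoprotein, averaged 314 ± 5.10 CPM in alectinib and 444 ± 21.7 CPM in DMSO (-0.50 ± 0.05). TSR1, an assembly factor of the small subunit, changed by -0.45 ± 0.06. The cytosolic ribosomal proteins stayed near the median of all genes, with 2 higher, 3 lower and 74 not called of 79 (median -0.01). Upper-quartile scaling called 9 of them higher, 7 were higher without alectinib replicate 4, and 6 lower without alectinib replicate 2. Levels by library are plotted for 20 genes of these and the following lists.

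**Figure D2:**
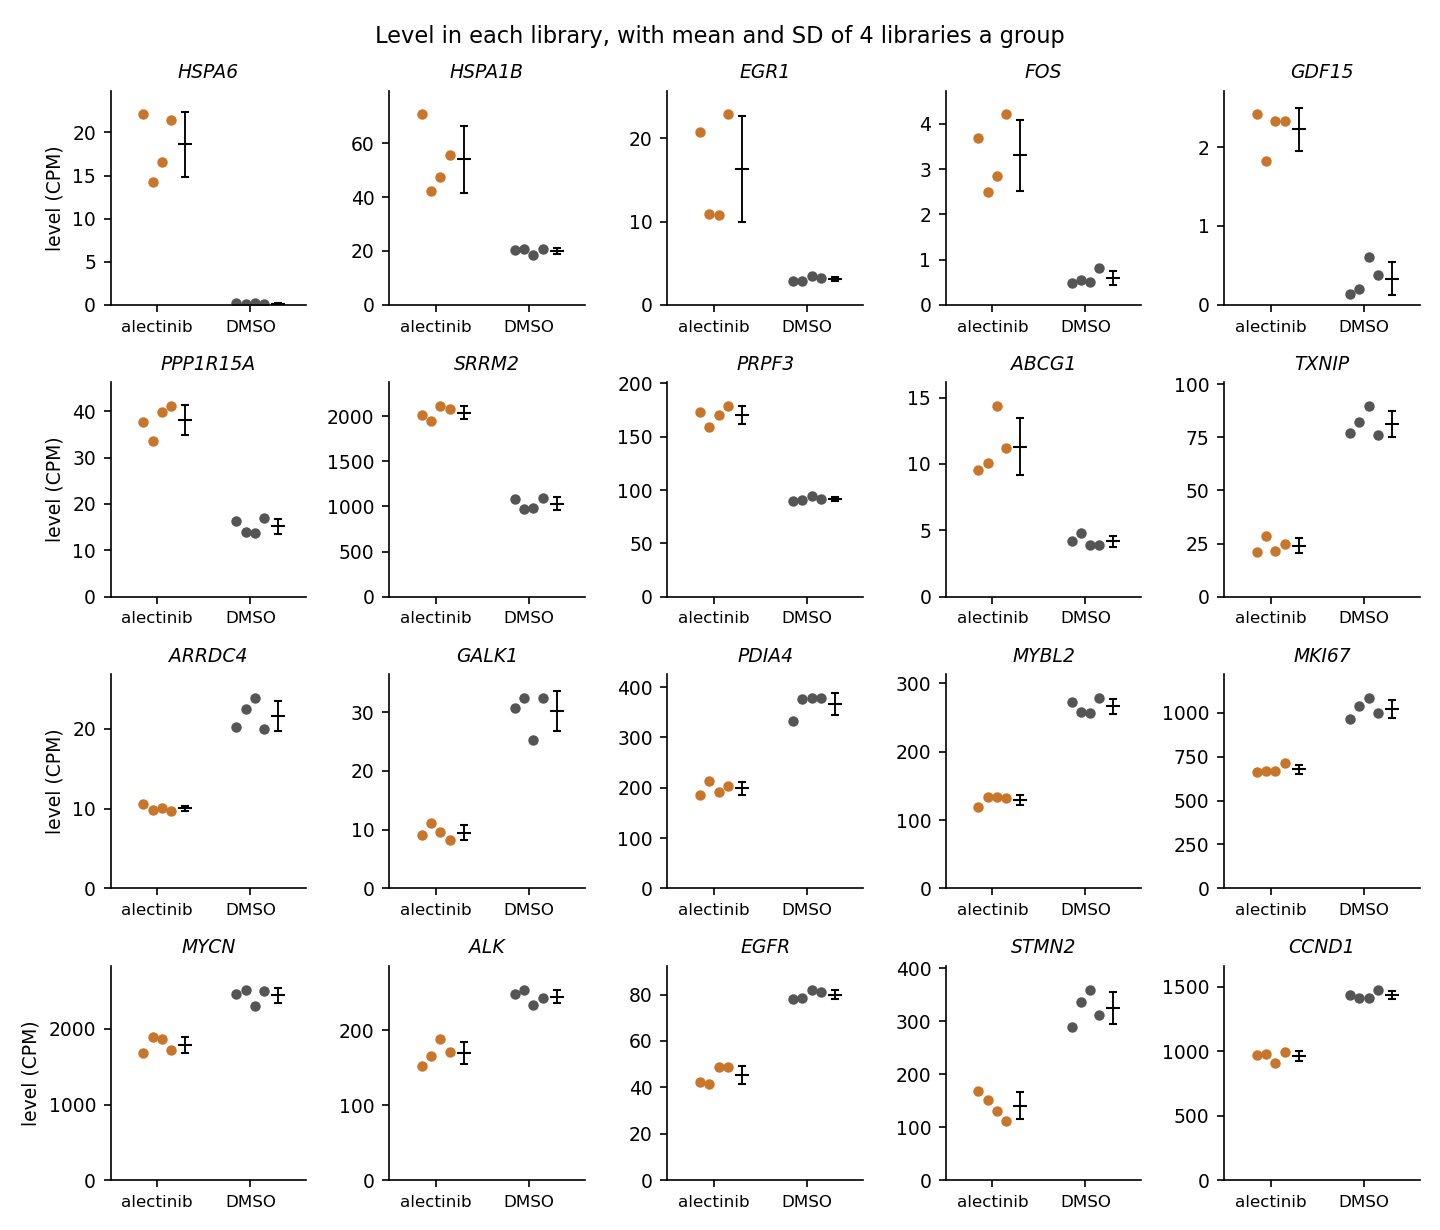
Each panel gives the level of 1 gene in CPM in the 4 alectinib libraries (left) and the 4 DMSO libraries (right), as points with the mean and SD of the group beside them, on an axis that starts at 0. The groups do not overlap in any of the 20 panels (26.4% of all tested genes have no overlap), and HSPA6 lies at 14.2 to 22.1 CPM in alectinib and at 0.0696 to 0.267 CPM in DMSO.

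Immediate early genes rose in 9 of 27 tested cases and fell in 1 (median 0.29). These genes answer within minutes to growth factors and stress, and many carry the CArG box, which binds the serum response factor. EGR1, a zinc finger factor of this class, had 20.7, 10.9, 10.8 and 22.9 CPM in the alectinib libraries, against 2.93, 2.93, 3.47 and 3.25 CPM in the DMSO libraries. Alectinib replicates 1 and 4 stood above replicates 2 and 3, and all of them far above DMSO, with a change of 2.38 ± 0.23, adjusted p = 1.49e-07. The 250 bases before its start held 2 CArG boxes, 105 and 83 bases before the start, which is why the sequence is shown (RefSeq, GRCh38.p14, chr5:138465229-138465478, plus strand, boxes in capitals).
EGR1: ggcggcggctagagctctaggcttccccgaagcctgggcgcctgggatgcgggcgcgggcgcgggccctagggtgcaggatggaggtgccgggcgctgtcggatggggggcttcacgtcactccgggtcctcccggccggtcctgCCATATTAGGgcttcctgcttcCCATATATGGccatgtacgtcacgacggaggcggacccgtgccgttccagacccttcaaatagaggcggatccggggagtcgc
A CArG box, searched on both strands, was in 1.14% of the 27305 promoters of that length and in 2 of the 20 matched members of the list, EGR1 and SRF. Of the 7 matched members called higher, only EGR1 held it, and SRF held it without a call. The part of the box was not tested. FOS, a subunit of the AP-1 factor, had 3.69, 2.48, 2.85 and 4.21 CPM in alectinib, against 0.488, 0.539, 0.516 and 0.818 CPM in DMSO. Its groups were apart at low levels, with a change of 2.48 ± 0.27, adjusted p = 9.18e-07. ATF3, a stress-induced factor, averaged 24.97 ± 3.29 CPM in alectinib and 12.02 ± 0.236 CPM in DMSO (SD, n = 4 each; 1.06 ± 0.12), and BTG2, which slows proliferation, 33.3 ± 1.88 CPM in alectinib and 17.5 ± 1.47 CPM in DMSO (0.93 ± 0.10). FOSL1, another AP-1 subunit, was called at 1.76 ± 0.31 with a level of 0.766 to 1.09 CPM in alectinib and 0.162 to 0.365 CPM in DMSO.

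A list of feedback genes and other outputs of the ERK pathway had 2 higher and 2 lower of 20 (median -0.01). These shares, 10% each, were near the 9.99% and 12.3% of all genes tested. FOSL1, LIF and CCND1 are in the list as outputs and not as negative feedback genes. Higher were FOSL1 (above) and the cytokine gene LIF (1.87 to 2.55 CPM in alectinib and 1.19 to 1.83 CPM in DMSO, log2 change 0.58 ± 0.16). Lower were CCND1 and SPRED2, an inhibitor of RAS activation, at -0.29 ± 0.07. Targets of the FOXO factors, which AKT holds out of the nucleus, had 5 higher and 2 lower of 20 (median 0.16). The higher count was 3 without DMSO replicate 2, and 8 under upper-quartile scaling or with the compared groups alone. KLHL24, a ubiquitin ligase adaptor, averaged 58.4 ± 2.90 CPM in alectinib and 44.1 ± 2.89 CPM in DMSO (0.41 ± 0.09), and PNRC1, a nuclear receptor coactivator, changed by 0.30 ± 0.07. CDKN1B, a classical member, was lower, as given above.

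The cytosolic heat shock response held the largest change of all genes at or above 5 CPM. Heat shock factor 1 binds repeats of the unit GAA and its mirror TTC in the promoters of chaperone genes. Of 27 members, 7 rose and 2 fell, and the median of the list was 0.06, so the change lay in a subset. HSPA6 (ENSG00000173110, chromosome 1, 161524540 to 161526910, plus strand), an inducible HSP70 that most unstressed cells hardly express, had 22.1, 14.2, 16.6 and 21.5 CPM in the alectinib libraries, against 0.209, 0.0719, 0.267 and 0.0696 CPM in the DMSO libraries. It was near the limit of detection in DMSO and abundant in every alectinib library, with a change of 6.90 ± 0.34, adjusted p = 1.03e-11. HSPA1B, the major inducible HSP70, had 70.7, 42.4, 47.4 and 55.7 CPM in alectinib, against 20.5, 20.9, 18.5 and 20.6 CPM in DMSO. Alectinib replicate 1 was the highest, and no library of the groups overlapped (1.43 ± 0.15, adjusted p = 3.93e-07). HSPA1A (1.43 ± 0.22, adjusted p = 4.26e-05) is a near-identical copy, so the reads of these genes may have been split or lost between them.

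Heat shock elements of these promoters are shown because HSPA6 and HSPA1B, which rose, carry them, although other members that carry them were not called (RefSeq, GRCh38.p14, 250 bases before the start, with the unit pair GAANNTTC and its longer form in capitals). The HSPA6 sequence is chr1:161524290-161524539, plus strand, and the HSPA1B sequence chr6:31827488-31827737, plus strand.
HSPA6: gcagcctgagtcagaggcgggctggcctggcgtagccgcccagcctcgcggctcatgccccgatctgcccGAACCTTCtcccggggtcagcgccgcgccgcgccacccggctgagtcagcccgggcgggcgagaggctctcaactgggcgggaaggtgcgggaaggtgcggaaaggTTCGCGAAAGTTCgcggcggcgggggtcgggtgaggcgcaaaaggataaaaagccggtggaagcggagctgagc
HSPA1B: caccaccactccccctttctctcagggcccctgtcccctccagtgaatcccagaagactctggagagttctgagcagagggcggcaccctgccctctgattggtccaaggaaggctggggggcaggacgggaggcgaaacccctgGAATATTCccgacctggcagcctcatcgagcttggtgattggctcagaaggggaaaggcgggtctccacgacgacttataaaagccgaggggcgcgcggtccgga
In HSPA6 the letters GAANNTTC began 180 and 69 bases before the start, the second inside the longer form, which began 74 bases before it. In HSPA1B they began 105 bases before the start. Searched on both strands, GAANNTTC was in 9 of the 23 members with a promoter (39.1%), against 5.85% of 27305 promoters. The 3-unit form, in which 1 more unit stands 2 bases before or after the pair, was in 4 of 23, against 0.439%. Of the 7 members called higher, 3 held GAANNTTC (42.9%) and 1 the 3-unit form, while CHORDC1, DNAJA1, HSPA1L, HSPA8, HSPB1 and SERPINH1 held GAANNTTC without a call, so this says nothing of the element's part. DNAJB1, the HSP40 partner of HSP70, averaged 139 ± 10.4 CPM in alectinib and 78.7 ± 4.66 CPM in DMSO (0.82 ± 0.11, adjusted p = 8.61e-06), and its exons overlap TECR.

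The integrated stress response, in which ATF4 drives amino acid and stress genes, was divided, with 9 higher and 8 lower of 39 members (median 0.00). PPP1R15A, the phosphatase subunit that ends the response, had 37.7, 33.6, 39.8 and 41.1 CPM in the alectinib libraries, against 16.3, 13.9, 13.8 and 16.9 CPM in the DMSO libraries. Its groups were apart, with a change of 1.32 ± 0.16, adjusted p = 3.55e-06. GDF15, a stress cytokine, had 2.41, 1.82, 2.33 and 2.33 CPM in alectinib, against 0.139, 0.198, 0.605 and 0.383 CPM in DMSO (2.74 ± 0.30, adjusted p = 8.21e-07). SHMT2, the mitochondrial serine hydroxymethyltransferase and an ATF4 target of one-carbon metabolism, went down: it averaged 145 ± 3.29 CPM in alectinib and 283 ± 18.5 CPM in DMSO (SD, n = 4 each; -0.96 ± 0.09, adjusted p = 1.19e-07). ATF3 was among the members that rose.

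Targets of p53 rose in 14 of 36 cases and fell in 1 (median 0.20). The count was 9 without DMSO replicate 2 and 19 under upper-quartile scaling. Leading members were GDF15 and BTG2 (above), SESN2, an inhibitor of mTORC1 signalling, at 29.5 ± 3.03 CPM in alectinib and 17.6 ± 0.972 CPM in DMSO (0.75 ± 0.12), and SPATA18, a mitochondrial quality protein, at 0.55 ± 0.08. Within the BCL2 family 2 were higher and 3 lower of 17 (median 0.00), with 1 higher without any 1 of 7 libraries, all but alectinib replicate 1, and its shares of 11.8% and 17.6% were near those of all genes tested. Of its BH3-only genes, whose proteins start apoptosis, BBC3 and BMF rose, PMAIP1 and HRK fell, and the others were not called. BBC3, which encodes PUMA, averaged 15.8 ± 1.26 CPM in alectinib and 9.85 ± 1.15 CPM in DMSO (0.68 ± 0.13, adjusted p = 0.000717). PMAIP1, which encodes NOXA, averaged 56.6 ± 1.61 CPM in alectinib and 76.97 ± 4.88 CPM in DMSO (-0.44 ± 0.07, adjusted p = 0.000138). HRK was lower at -0.43 ± 0.09. BCL2, the antiapoptotic founder of the family, was lower at -0.23 ± 0.06, adjusted p = 0.0109, and missed the threshold under upper-quartile scaling (-0.15, adjusted p = 0.0883).

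Chaperones and folding enzymes of the endoplasmic reticulum fell in 23 of 32 cases and rose in 2 (median -0.45). Leaving out single libraries kept the lower count at 19 or more, but the higher count was 0 without any 1 of DMSO replicates 1, 2 and 4 and alectinib replicate 3. These genes are induced when unfolded proteins gather in the reticulum, through ATF6, XBP1 and PERK. PDIA4, a disulfide isomerase, had 186, 214, 191 and 203 CPM in the alectinib libraries, against 333, 377, 378 and 379 CPM in the DMSO libraries. DMSO replicate 1 was below the other DMSO libraries but far above alectinib, and the change was -0.89 ± 0.08, adjusted p = 4.88e-08. HERPUD1, of the degradation machinery, averaged 103 ± 3.69 CPM in alectinib and 169 ± 10.8 CPM in DMSO (-0.71 ± 0.07). MANF, a secreted survival factor, averaged 92.5 ± 11.4 CPM in alectinib and 174 ± 9.71 CPM in DMSO (-0.92 ± 0.10), and CRELD1 changed by -0.97 ± 0.10. HSPA5, which encodes the master chaperone BiP and was picked out after its values were seen, had 864, 1099.9, 899 and 1010.4 CPM in alectinib, against 1457, 1613, 1647 and 1599.9 CPM in DMSO. Its change was -0.71 ± 0.08, adjusted p = 1.22e-06, and its promoter is shown for the ER stress element that ATF6 binds (RefSeq, GRCh38.p14, chr9:125241344-125241593, minus strand, element in capitals).
HSPA5: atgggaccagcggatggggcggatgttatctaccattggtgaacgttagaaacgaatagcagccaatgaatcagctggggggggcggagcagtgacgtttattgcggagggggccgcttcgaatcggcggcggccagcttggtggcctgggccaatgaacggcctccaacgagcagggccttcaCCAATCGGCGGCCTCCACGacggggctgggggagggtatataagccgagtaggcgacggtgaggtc
The element, CCAAT and CCACG with any 9 bases between them on either strand, began 66 bases before the start. It was in 6 of the 29 members with a promoter, against 0.0806% of 27305 promoters, and all 6 (CALR, CANX, CRELD2, HSP90B1, HSPA5 and XBP1) were called lower. As 22 of those 29 members were called lower, this says nothing of the element's part.

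**Figure D3:**
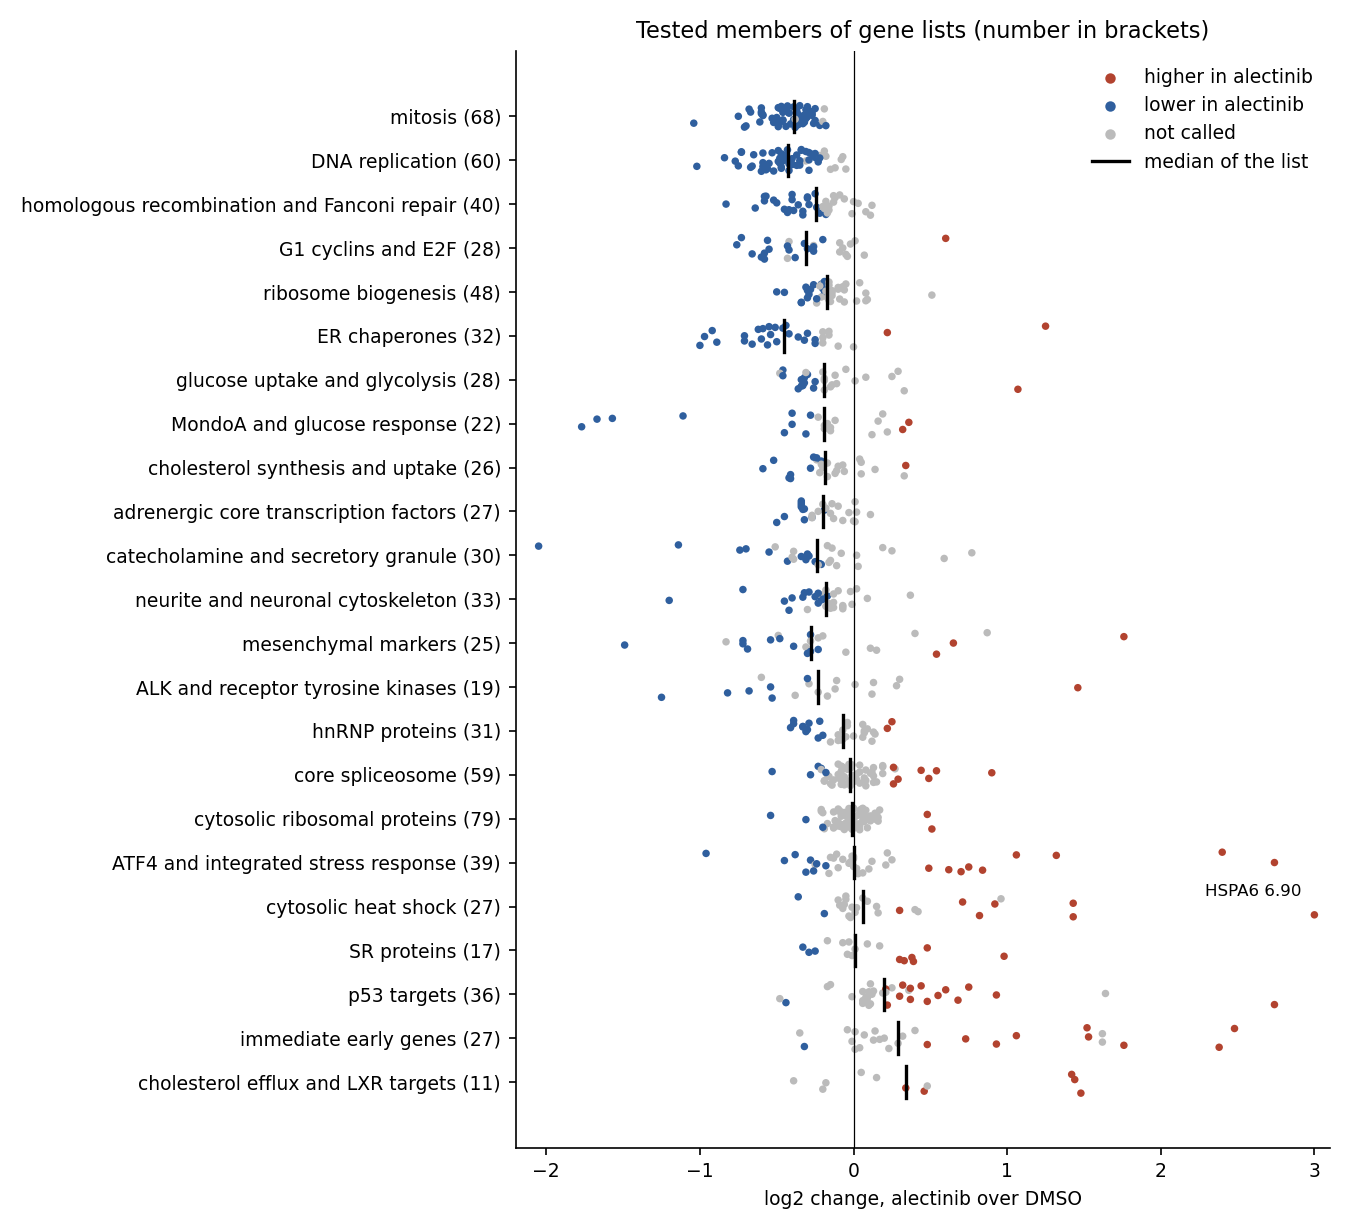
Each point is a tested member of 1 of 23 gene lists, with its log2 change, alectinib over DMSO, across, coloured by its call, and a black bar at the median of the list (number of members in brackets). Mitosis, DNA replication and ER chaperones lie to the left with medians of -0.39, -0.43 and -0.45, while the heat shock list is centred near 0.06 with HSPA6 beyond the axis at 6.90.

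Glucose-responsive genes contained the largest falls. The factor MondoA, with its partner MLX, senses glucose 6-phosphate and binds E-boxes, whose classical form is CACGTG, in the promoters of TXNIP and ARRDC4. Of 22 tested genes of this list, 9 fell and 2 rose (median -0.19). TXNIP (ENSG00000265972, chromosome 1, 145992435 to 145996600, minus strand), an arrestin that limits glucose uptake, had 20.9, 28.4, 21.5 and 24.9 CPM in the alectinib libraries, against 77.05, 82.01, 89.7 and 76.3 CPM in the DMSO libraries. Its groups were far apart, with a change of -1.77 ± 0.11, adjusted p = 3.37e-10, the most negative among protein-coding genes at 5 CPM or more whose groups do not overlap. ARRDC4, its closest functional relative, had 10.5, 9.84, 10.04 and 9.75 CPM in alectinib, against 20.2, 22.4, 23.9 and 19.9 CPM in DMSO (-1.11 ± 0.09, adjusted p = 1.35e-08). The promoters of both are shown with the motif in capitals, a pair of E-boxes 5 bases apart (CACGNG, then CNCGNG) in TXNIP, chr1:145996580-145996829, minus strand, and a single CACGTG in ARRDC4, chr15:97960453-97960702, plus strand (RefSeq, GRCh38.p14).
TXNIP: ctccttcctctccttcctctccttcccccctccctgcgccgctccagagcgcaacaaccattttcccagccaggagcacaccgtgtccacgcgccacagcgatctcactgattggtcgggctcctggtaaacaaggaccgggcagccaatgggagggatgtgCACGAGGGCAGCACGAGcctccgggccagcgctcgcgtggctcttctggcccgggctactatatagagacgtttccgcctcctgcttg
ARRDC4: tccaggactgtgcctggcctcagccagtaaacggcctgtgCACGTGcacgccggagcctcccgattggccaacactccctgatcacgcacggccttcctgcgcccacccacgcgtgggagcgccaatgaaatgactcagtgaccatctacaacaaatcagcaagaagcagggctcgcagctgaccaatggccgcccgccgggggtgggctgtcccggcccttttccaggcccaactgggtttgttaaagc
The pair in TXNIP began 88 bases and the E-box in ARRDC4 210 bases before the start. On both strands, the pair was in 2 of 20 matched members, against 0.439% of 27305 promoters, and CACGTG in 5 of 20, against 6.49%. Of the 8 matched members called lower, 1 held the pair (TXNIP) and 4 held CACGTG (ARRDC4, G6PC3, MLX and PGM2). GFPT1 held the pair and GALT held CACGTG without a call. The part of these motifs was not tested. GALK1, which phosphorylates galactose, had 9.14, 11.1, 9.52 and 8.15 CPM in alectinib, against 30.8, 32.4, 25.2 and 32.4 CPM in DMSO (-1.67 ± 0.18, adjusted p = 6.35e-07). SLC37A4, the glucose 6-phosphate transporter of the reticulum, changed by -1.57 ± 0.14, but its exons overlap TRAPPC4. MLX was lower at -0.31 ± 0.09, and MLXIP, which encodes MondoA, was at -0.12 ± 0.06 without a call.

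Glucose uptake and glycolysis genes fell in 11 of 28 tested cases and rose in 1 (39.3% and 3.57%, median -0.20). TPI1, triosephosphate isomerase, averaged 438 ± 52.1 CPM in alectinib and 603 ± 29.8 CPM in DMSO (SD, n = 4 each; -0.46 ± 0.09). LDHA, lactate dehydrogenase, had 793, 584, 498 and 510.4 CPM in alectinib, against 868, 832, 822 and 769 CPM in DMSO. Alectinib replicate 1 reached into the DMSO range, and the call was -0.46 ± 0.10, adjusted p = 0.00144. GPI was at -0.36 ± 0.07 and the lactate carrier gene SLC16A1 at -0.34 ± 0.06. Hypoxia-responsive genes, many of which encode glycolytic proteins, had 1 higher and 1 lower of 22 (median 0.06). Without alectinib replicate 1 the lower count was 5, and the higher count ran from 0, without DMSO replicate 2, to 2, without DMSO replicate 1. The summed level of this list was 1381 CPM in alectinib replicate 1 and 842 to 876 CPM in the other alectinib libraries, against 910 to 1147 CPM in DMSO. The gene called lower with all libraries was LOX, a collagen cross-linking enzyme, at 11.6 ± 1.01 CPM in alectinib and 19.9 ± 2.17 CPM in DMSO (-0.77 ± 0.11). Nuclear genes of oxidative phosphorylation fell in 14 of 50 cases and rose in 2 (28% and 4%, median -0.14). Of all protein-coding genes, 22.4% were lower at 20 to 100 CPM and 33.2% above 100 CPM. The lower count of the list was 8 under upper-quartile scaling, 8 without alectinib replicate 3 and 7 without alectinib replicate 4. ATP5MC1, of the ATP synthase ring, averaged 116 ± 12.9 CPM in alectinib and 184 ± 5.07 CPM in DMSO (-0.67 ± 0.08). NDUFA9, of complex I, was higher at 0.50 ± 0.09.

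Genes of cholesterol synthesis and uptake fell in 9 of 26 cases and rose in 1 (34.6% and 3.85%, median -0.18). The lower count was 6 under upper-quartile scaling or without DMSO replicate 2. Of all protein-coding genes above 100 CPM, 33.2% were lower. LSS, lanosterol synthase, averaged 156 ± 11.00 CPM in alectinib and 208 ± 14.7 CPM in DMSO (-0.42 ± 0.09), and STARD4, a carrier of cholesterol, changed by -0.52 ± 0.08. The 1 member that rose was SREBF2, which encodes the transcription factor of the pathway, at 511 ± 33.1 CPM in alectinib and 403 ± 13.3 CPM in DMSO (0.34 ± 0.07, adjusted p = 0.00135), with an overlapping antisense gene. Fatty acid synthesis genes fell in 6 of 18 cases (33.3%) and rose in none (median -0.15), with 4 lower under upper-quartile scaling or without DMSO replicate 3. ACLY, which makes cytosolic acetyl-CoA, changed by -0.45 ± 0.09 and the desaturase gene SCD5 by -0.45 ± 0.06.

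Targets of the LXR receptors, which export cholesterol, moved the other way, with 5 of 11 tested higher and none lower (median 0.34). ABCG1, a sterol exporter, had 9.56, 10.1, 14.4 and 11.2 CPM in the alectinib libraries, against 4.16, 4.76, 3.88 and 3.88 CPM in the DMSO libraries. All alectinib libraries were above all DMSO libraries, with a change of 1.44 ± 0.15, adjusted p = 6.82e-07. ABCA1, the exporter that forms HDL, was at 1.21 to 1.51 CPM in alectinib and 0.244 to 0.659 CPM in DMSO (1.48 ± 0.24), and APOE, an apolipoprotein, at 1.65 to 2.91 CPM in alectinib and 0.481 to 1.12 CPM in DMSO (1.42 ± 0.21). MYLIP, which degrades the LDL receptor, averaged 29.99 ± 1.58 CPM in alectinib and 21.8 ± 0.91 CPM in DMSO (0.46 ± 0.08).

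Lysosomal genes had 6 higher and 8 lower of 48 tested (median 0.00). These shares, 12.5% and 16.7%, were near the 9.99% and 12.3% of all genes tested. The lysosomal counts were 12 and 5 under upper-quartile scaling. The lower count was 4 without any 1 of alectinib replicates 1 and 4 and DMSO replicates 2 and 4, and 5 without DMSO replicate 1. GUSB, a lysosomal glucuronidase, had 21.4, 23.98, 22.7 and 23.7 CPM in alectinib, against 44.2, 42.4, 40.3 and 50.04 CPM in DMSO (-0.95 ± 0.09, adjusted p = 1.05e-07). The protease gene CTSF changed by -0.74 ± 0.10 and the calcium channel gene MCOLN1 by -0.67 ± 0.10. GPNMB, a glycoprotein of stressed lysosomes, was higher at a level under 1 CPM, 0.404 to 0.761 CPM in alectinib and 0 to 0.0719 CPM in DMSO (3.73 ± 0.56). Of 31 autophagy genes, 5 rose and 1 fell (median 0.02). SQSTM1, the receptor p62, averaged 78.3 ± 10.02 CPM in alectinib and 47.98 ± 4.12 CPM in DMSO (0.71 ± 0.14, adjusted p = 0.000692), and ULK1, the initiating kinase, changed by 0.39 ± 0.09. BECN1 was lower at -0.29 ± 0.06, and 3 genes were lower without alectinib replicate 1. Targets of NRF2, the factor of oxidative stress, were mixed, with 4 higher and 6 lower of 26 tested (median -0.06). HMOX1, heme oxygenase, had 1.94 to 3.40 CPM in alectinib and 0.523 to 0.766 CPM in DMSO (2.08 ± 0.36, adjusted p = 0.000225), while UGDH, which makes UDP-glucuronate, fell, with 38.6 ± 1.38 CPM in alectinib and 58.1 ± 1.54 CPM in DMSO (-0.59 ± 0.07).

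SR proteins, whose serine and arginine repeats are phosphorylated by SRPK and CLK kinases, rose in 6 and fell in 3 of 17 cases (35.3% and 17.6%, against 9.99% and 12.3% of all genes tested; median 0.01). SRRM2, a scaffold of nuclear speckles (ENSG00000167978, chromosome 16, 2752329 to 2772538, plus strand), had 2019, 1949, 2113 and 2082 CPM in the alectinib libraries, against 1087, 967, 981 and 1095 CPM in the DMSO libraries. Its spread within groups was small beside the gap between them, with a change of 0.98 ± 0.05, adjusted p = 2.96e-11. The gene overlaps ELOB and SRRM2-AS1. SRRM1, a related coactivator, averaged 185 ± 22.4 CPM in alectinib and 133 ± 3.65 CPM in DMSO (0.48 ± 0.07), SON, another speckle scaffold, 589.9 ± 16.97 CPM in alectinib and 451 ± 21.9 CPM in DMSO (0.39 ± 0.05) and SRSF5 329 ± 7.66 CPM in alectinib and 252 ± 7.17 CPM in DMSO (0.38 ± 0.06). Among 16 kinases of SR proteins 3 were higher and 2 lower (18.8% and 12.5%, median -0.03). DYRK1B averaged 21.4 ± 2.08 CPM in alectinib and 12.1 ± 1.10 CPM in DMSO (0.82 ± 0.09) and CLK3 98.8 ± 4.91 CPM in alectinib and 74.1 ± 3.37 CPM in DMSO (0.41 ± 0.06), while SRPK3, a muscle-type kinase, was lower at 0.989 to 1.55 CPM in alectinib and 2.40 to 5.65 CPM in DMSO (-1.50 ± 0.30) with exons that overlap PLXNB3.

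RBM39, the splicing factor that indisulam degrades, had 374, 381, 344 and 355 CPM in the alectinib libraries, against 253, 269, 297 and 265 CPM in the DMSO libraries. Without any indisulam, all alectinib libraries lay above all DMSO libraries, with a change of 0.42 ± 0.06, adjusted p = 2.04e-05. Core spliceosome genes had 7 higher and 5 lower of 59 (11.9% and 8.47%, near the shares of all genes tested; median -0.02), 16 and 2 under upper-quartile scaling. The lower count was 2 without any 1 of DMSO replicates 1 and 2 and alectinib replicate 4, 3 without DMSO replicate 3 or alectinib replicate 1, and 8 without alectinib replicate 2. PRPF3, of the U4/U6 particle, had 173, 159, 170.4 and 179 CPM in alectinib, against 89.9, 90.6, 94.1 and 91.1 CPM in DMSO. Its libraries were closely grouped on either side of the gap (0.90 ± 0.06, adjusted p = 5.54e-10). SNRNP200, the helicase that unwinds U4 from U6, averaged 1197 ± 85.7 CPM in alectinib and 851 ± 20.6 CPM in DMSO (0.49 ± 0.06), and PRPF6, of the U5 particle, 195 ± 16.2 CPM in alectinib and 134 ± 4.33 CPM in DMSO (0.54 ± 0.07). U2AF1 was called higher (2.22 ± 0.64, adjusted p = 0.0142) with 17.3 CPM in alectinib replicate 3 and at most 2.95 CPM elsewhere. Without that library it was at 0.79 with an adjusted p of 0.308.

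The hnRNP proteins fell in 11 and rose in 2 of 31 cases (35.5% and 6.45%, median -0.07). The lower share was near the 33.2% of all protein-coding genes above 100 CPM. HNRNPK averaged 668 ± 32.04 CPM in alectinib and 885 ± 29.6 CPM in DMSO (-0.41 ± 0.06), and HNRNPA2B1 1101 ± 40.5 CPM in alectinib and 1367 ± 57.3 CPM in DMSO (-0.31 ± 0.05). Both act in splicing and mRNA transport, and both overlap a neighbour. Nonsense-mediated decay factors had 5 higher and 2 lower of 20 (median 0.00), with CASC3, of the exon junction complex, at 0.32 ± 0.05 and the helicase gene DHX34 at 0.40 ± 0.08. Hosts of small nucleolar RNAs had 3 higher and 2 lower of 27 (median -0.02), GAS5 at 0.22 ± 0.05 and SNHG4 at -0.43 ± 0.08. Their shares, 11.1% and 7.41%, were near those of all genes tested.

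Interferon-stimulated genes were low, with 20 of 29 tested, 5 of them higher and none lower (median 0.06). The count was 2 without DMSO replicate 2, and 3 without any 1 of DMSO replicates 1 and 3 and alectinib replicates 1, 3 and 4. IFI35 had 1.23 to 1.90 CPM in alectinib and 0.226 to 0.68 CPM in DMSO (1.77 ± 0.25, adjusted p = 1.61e-05) and IFIT1, which binds foreign RNA, 1.73 to 2.47 CPM in alectinib and 1.03 to 1.64 CPM in DMSO (0.69 ± 0.18). Of 12 metallothionein genes and their regulator, 4 were tested, and 1, the metal-sensing factor gene MTF1, was higher at 0.38 ± 0.07. Among 454 zinc finger genes of the ZNF series, 70 rose and 14 fell (15.4% and 3.08%, median 0.06). Of all protein-coding genes, 15.3% were higher and 9.29% lower at 1 to 5 CPM, and 11.3% and 15.2% at 5 to 20 CPM. The ZNF counts were 113 and 8 under upper-quartile scaling, with 40 to 46 higher without any 1 of 6 libraries, the fewest without DMSO replicate 2. Histone genes had 1 higher and 4 lower of 56, and as poly(A) libraries hold few replication-dependent histone transcripts, these counts say little. The lower count ran from 1, without alectinib replicate 4, to 7, without DMSO replicate 1.

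The protein-coding genes of highest fold at 5 CPM or more included several outside these lists. KIAA1324, an endosomal and lysosomal membrane protein, had 25.9, 25.4, 23.99 and 37.5 CPM in the alectinib libraries, against 7.16, 4.84, 5.77 and 4.89 CPM in the DMSO libraries. Alectinib replicate 4 was above the others, but all 4 were far above DMSO (2.32 ± 0.20, adjusted p = 4.43e-08). Its exons overlap C1orf194. COL7A1, the collagen of anchoring fibrils, averaged 22.4 ± 3.07 CPM in alectinib and 7.99 ± 2.58 CPM in DMSO (SD, n = 4 each; 1.49 ± 0.17). IL3RA, a subunit of the interleukin-3 receptor, averaged 15.6 ± 2.05 CPM in alectinib and 5.97 ± 1.20 CPM in DMSO (1.39 ± 0.17). The major vault protein gene MVP changed by 1.38 ± 0.11.

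Some of the genes with high folds are textbook markers of other tissues. PDLIM3, a muscle Z-disc protein, averaged 9.23 ± 1.73 CPM in alectinib and 3.69 ± 0.536 CPM in DMSO (1.32 ± 0.16), and MYH3, an embryonic myosin heavy chain, 8.93 ± 0.821 CPM in alectinib and 3.70 ± 0.159 CPM in DMSO (1.27 ± 0.13). The starch-digesting enzyme genes MGAM (1.25 ± 0.11), MGAM2 (1.25 ± 0.16) and AMY2B (1.32 ± 0.15) were higher too. MGAM and MGAM2 are close copies, and AMY2B has near-identical copies and shares exonic bases with RNPC3, so these counts are uncertain.

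Among the falls of largest fold were CD9, a tetraspanin of the cell surface, with 8.44, 8.46, 6.51 and 5.39 CPM in alectinib, against 18.7, 17.1, 19.4 and 21.9 CPM in DMSO (-1.42 ± 0.14, adjusted p = 3.7e-07), and LIX1, with 28.9, 33.99, 33.1 and 28.7 CPM in alectinib, against 69.2, 74.7, 83.7 and 76.5 CPM in DMSO (-1.29 ± 0.10, adjusted p = 8.01e-09). Neither showed any overlap of groups. SLC25A10, the mitochondrial dicarboxylate carrier, was lower at -1.35 ± 0.20, and SLC27A3, of the fatty acid transport family, at -1.32 ± 0.15. PPP1R14A, an inhibitor of myosin phosphatase, averaged 3.23 ± 0.541 CPM in alectinib and 8.06 ± 1.12 CPM in DMSO (-1.32 ± 0.18). SRPX2 (-1.42 ± 0.22), SHISA3 (-1.27 ± 0.11), RELL2 (-1.31 ± 0.14), PAQR6 (-1.46 ± 0.14) and MFSD3 (-1.50 ± 0.15) were the others of this group. SRPX2, RELL2, PAQR6, SLC25A10 and SLC27A3 share exonic bases with a neighbour.

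Further genes stood out by the strength of the test at 50 CPM or more. EZH1, a histone H3 lysine methyltransferase, averaged 106 ± 6.75 CPM in alectinib and 65.8 ± 5.10 CPM in DMSO (0.69 ± 0.07), BCLAF1, a nuclear factor of transcription and splicing, 796 ± 62.00 CPM in alectinib and 500.3 ± 44.8 CPM in DMSO (0.67 ± 0.07), and ZZEF1 157 ± 7.34 CPM in alectinib and 111 ± 4.34 CPM in DMSO (0.50 ± 0.05). C15orf40 was higher by 0.80 ± 0.06 with exons shared with RAMAC. On the lower side, TIMP3, an inhibitor of metalloproteinases, had 63.2, 62.6, 59.7 and 56.7 CPM in alectinib, against 106, 106, 102 and 103 CPM in DMSO. Its libraries hardly varied within groups (-0.78 ± 0.06, adjusted p = 1.84e-08). TENM4, a teneurin of neuronal contacts, averaged 138 ± 8.15 CPM in alectinib and 239 ± 13.3 CPM in DMSO (-0.79 ± 0.07), QARS, the glutaminyl-tRNA synthetase, 66.4 ± 2.24 CPM in alectinib and 117 ± 4.83 CPM in DMSO (-0.81 ± 0.07), APEH, an acylpeptide hydrolase, 41.7 ± 2.29 CPM in alectinib and 96.04 ± 7.06 CPM in DMSO (-1.21 ± 0.10) and CHMP3, of the ESCRT-III complex, 37.6 ± 2.71 CPM in alectinib and 68.00 ± 1.90 CPM in DMSO (-0.85 ± 0.07). Exons of APEH and CHMP3 overlap other genes.

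Calls were mostly lower among protein-coding genes and mostly higher among noncoding genes. Of 14715 protein-coding genes 1390 were higher and 2638 lower, with a median log2 change of -0.04. Of 4724 long noncoding genes 608 were higher and 68 lower (median 0.25), among them 198 and 16 of 1498 lincRNA genes and 260 and 36 of 2101 antisense genes. Pseudogenes had 204 higher and 52 lower of 2462 (median 0.14). The excess of higher calls was seen for long noncoding genes with no coding gene at their place (249 higher and 20 lower of 1677) and for those across from a coding gene (256 and 37 of 2225). It was also seen inside coding genes on the same strand (103 and 11 of 822).

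Noncoding genes are mostly of low level, so the classes were compared within ranges of level. Between 5 and 20 CPM, 11.3% of protein-coding genes were higher and 15.2% lower, against 25.4% and 7.9% of the 519 noncoding genes and pseudogenes. Between 20 and 100 CPM the shares were 7.88% and 22.4% of protein-coding genes, and 20.8% and 7.92% of 202 noncoding genes. The share of protein-coding genes called lower rose with level, to 33.2% above 100 CPM. Counts of lower members in lists of abundant coding genes are to be read beside these shares.

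**Figure D4:**
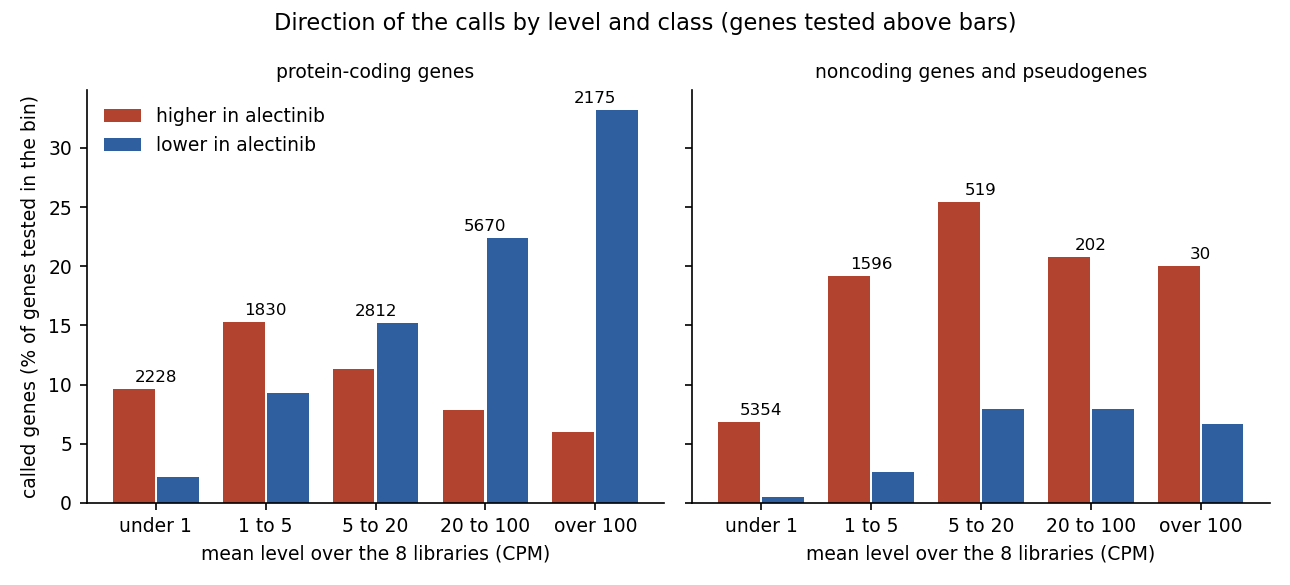
Bars give the share of tested genes called higher and lower in alectinib, in percent, by range of mean level in CPM, for protein-coding genes and for noncoding genes and pseudogenes, with the number of genes above. In each range from 1 CPM up, the noncoding genes have more higher than lower calls, while protein-coding genes have more lower calls from 5 CPM up.

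Summed over each class, the shift was small. Antisense genes took 0.617%, 0.571%, 0.617% and 0.613% of the counts in the alectinib libraries, against 0.529%, 0.484%, 0.486% and 0.489% in the DMSO libraries. The groups did not overlap (two-sided exact permutation test, p = 0.0286, the smallest that 4 against 4 libraries allow, adjusted p = 0.04 over 21 shares). For lincRNA genes the share was 1.13% ± 0.0537 in alectinib and 0.977% ± 0.151 in DMSO (SD, n = 4 each, exact permutation p = 0.114, adjusted p = 0.141). Protein-coding genes took 91% ± 0.847 in alectinib and 91.6% ± 0.332 in DMSO (exact permutation p = 0.171). Of the counts outside the mitochondrial chromosome they took 96.4% ± 0.142 in alectinib and 96.8% ± 0.201 in DMSO, without overlap (exact permutation p = 0.0286, adjusted p = 0.04). Mitochondrially encoded genes took 5.63% ± 0.741 in alectinib and 5.38% ± 0.258 in DMSO (exact permutation p = 0.686).

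AC125494.2, a noncoding gene on chromosome 12, led the named noncoding genes at 1 CPM or more, with 2.10, 1.71, 1.89 and 1.72 CPM in the alectinib libraries, against 0.401, 0.342, 0.249 and 0.296 CPM in the DMSO libraries (2.52 ± 0.27, adjusted p = 6.76e-07). AC007318.2 (2.05 ± 0.21), ATE1-AS1 (1.71 ± 0.23), AC131212.3 (1.57 ± 0.15), LINC00939 (1.55 ± 0.26) and AC079684.1 (1.55 ± 0.22) were the next by fold. AC131212.3 was the most abundant of these at 18.3 to 23.7 CPM in alectinib and 4.79 to 8.76 CPM in DMSO. The falls were smaller, led by AC006128.1 at -1.11 ± 0.29 and the pseudogene TEKT4P2 at -1.08 ± 0.20. Exons of AC006128.1 overlap AKAP8L, those of ATE1-AS1 overlap ATE1 and those of AC007318.2 overlap AC007318.1, on the other strand, so these counts are uncertain. AC108025.2 fell by 0.88 on the log2 scale, but its exons share bases with SOX11 on the same strand, so these falls may rest in part on the same reads.

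The alectinib step was also measured in cells that had indisulam in both groups, as combination minus indisulam, which shares no library with alectinib against DMSO. There 8751 genes were called (39%), 4249 higher (18.9%) and 4502 lower (20.1%). Of the 2242 genes higher with alectinib alone, 1264 were higher there (56.4%, and 29.7% of the 4249), and 64 lower. Of the 2767 lower genes, 1853 were lower (67%, and 41.2% of the 4502), and 84 higher. Their median log2 changes were 0.64 alone and 0.44 on indisulam for the higher genes, and -0.37 in each case for the lower ones. As the genes were chosen by their change alone, that choice can enlarge the medians alone, and the 2 sets of medians are not a fair comparison of size. Over the 11424 genes at 5 CPM or more, the changes correlated across genes with Pearson's r of 0.643 and Spearman's rho of 0.574. Genes are not independent replicates, all libraries were made in 1 series, and no p is given.

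**Figure D5:**
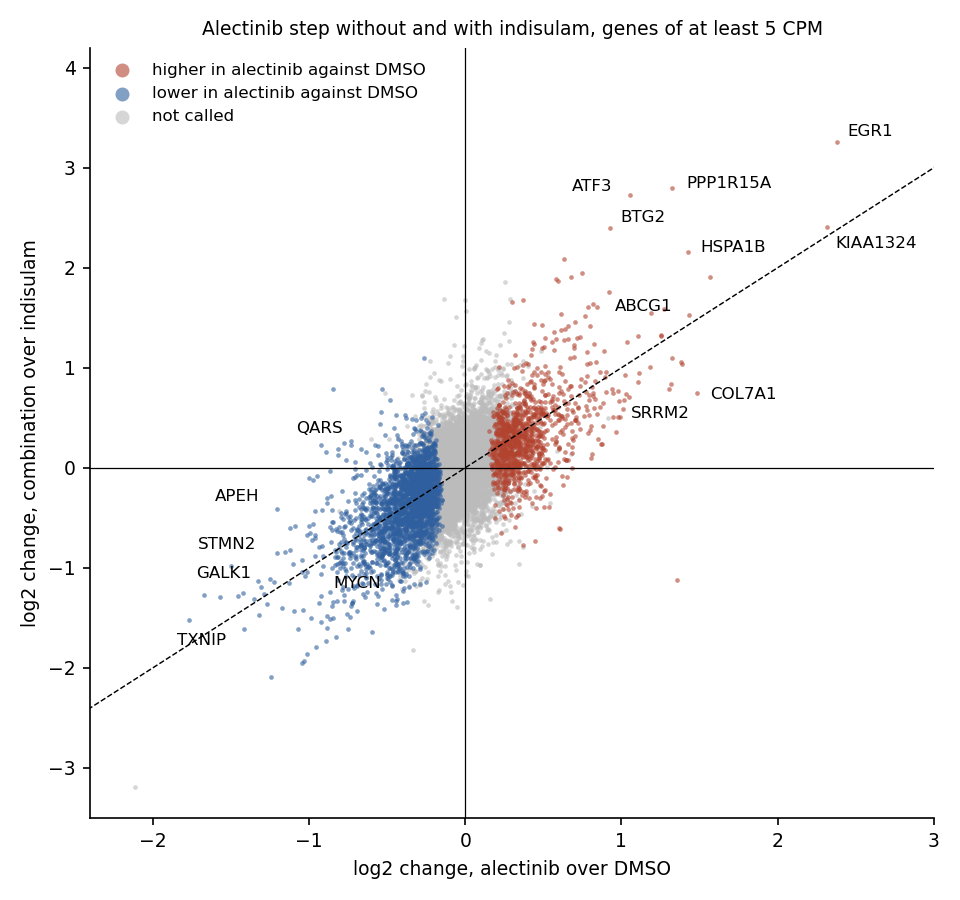
Each point is 1 of 11424 genes of at least 5 CPM, with its log2 change in alectinib over DMSO across and in the combination over indisulam up the page, and the dashed line marks equal changes. The 1075 higher and 2480 lower genes of alectinib alone are coloured, QARS and PPP1R15A lie far from the line, and HSPA6 at 6.90 and 7.85 is outside the axes.

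Against indisulam alone, tested directly and with doses that differ, 11062 genes were at other levels in alectinib (49.3%). HSPA6 averaged 18.6 ± 3.81 CPM in alectinib and 0.235 ± 0.054 CPM in indisulam (SD, n = 4 each; log2 6.31 ± 0.32, adjusted p = 3.49e-13). TXNIP averaged 23.9 ± 3.48 CPM in alectinib and 72.5 ± 4.27 CPM in indisulam (-1.60 ± 0.11, adjusted p = 4.16e-11), ABCG1 11.3 ± 2.15 CPM in alectinib and 3.58 ± 0.971 CPM in indisulam (1.65 ± 0.16, adjusted p = 7.26e-09) and SRRM2 2041 ± 72.9 CPM in alectinib and 1254 ± 38.4 CPM in indisulam (0.70 ± 0.05, adjusted p = 2.07e-10). MYCN (-0.44 ± 0.06, adjusted p = 2.79e-06) was lower in alectinib than in indisulam. For other genes the drugs were not told apart, among them MYBL2, with 129 ± 6.96 CPM in alectinib and 125 ± 5.84 CPM in indisulam (0.05 ± 0.10, adjusted p = 0.676), and PDIA4, with 199 ± 12.5 CPM in alectinib and 213 ± 19.4 CPM in indisulam (-0.10 ± 0.08, adjusted p = 0.284). GALK1, far below DMSO in alectinib, was higher in alectinib than in indisulam (9.48 ± 1.22 CPM in alectinib and 6.34 ± 0.81 CPM in indisulam, 0.58 ± 0.18, adjusted p = 0.0104).

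The size of the step differed between the backgrounds for 3025 genes (13.5% of those tested; interaction term of the same fit). Among the genes called for alectinib alone, 419 of the higher (18.7%) and 647 of the lower (23.4%) had an interaction call. The interaction term holds the same alectinib and DMSO libraries that chose these genes. Their shares therefore cannot be weighed against the 13.5% of all genes. MYCN fell further on indisulam, with 1294 ± 99.6 CPM in the combination and 2438 ± 153 CPM in indisulam (SD, n = 4 each), a log2 change of -0.91 ± 0.06, against -0.45 ± 0.06 alone (interaction -0.47 ± 0.09, adjusted p = 0.00111). EGFR did likewise, at -1.33 ± 0.08 on indisulam and -0.82 ± 0.08 alone (interaction -0.51 ± 0.11, adjusted p = 0.00279). The difference for ALK, -0.68 ± 0.07 on indisulam and -0.53 ± 0.07 alone, did not pass the test (interaction -0.15 ± 0.10, adjusted p = 0.351). PPP1R15A rose further on indisulam (2.80 ± 0.17, interaction 1.48 ± 0.23, adjusted p = 0.000188), as did HSPA1B (2.16 ± 0.15, interaction 0.74 ± 0.20, adjusted p = 0.0174). For HSPA6, at 7.85 ± 0.32, the interaction was 0.96 ± 0.67, adjusted p = 0.392, and was not called. QARS was called in opposite directions, 0.18 ± 0.07 on indisulam and -0.81 ± 0.07 alone (interaction 1.00 ± 0.10, adjusted p = 1.47e-06).

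The lists were also counted for the step on indisulam. Mitosis genes were lower on indisulam in 49 of 68 cases and DNA replication genes in 45 of 60. Adrenergic factors were lower in 23 of 27 cases, with a median of -0.51 on indisulam and -0.20 alone and 14 interaction calls. ER chaperones were lower in 12 and higher in 8 of 32 cases on indisulam, with a median of -0.07 there and -0.45 alone and 20 interaction calls. PDIA4 changed by -0.30 ± 0.08 on indisulam and -0.89 ± 0.08 alone (interaction 0.59 ± 0.11, adjusted p = 0.00088), and HSPA5 by -0.10 ± 0.08 on indisulam and -0.71 ± 0.08 alone. Targets of p53 were higher in all 36 cases on indisulam, with a median of 1.03 there and 0.20 alone and 32 interaction calls. Immediate early genes were higher in 17 and lower in 2 of 27 cases (median 0.75 on indisulam, 0.29 alone, 10 interaction calls). Cytosolic ribosomal proteins, close to level alone at -0.01, had a median of 0.37 on indisulam, where 68 of 79 were higher. Heat shock genes were higher in 19 of 27 cases, with a median of 0.41 on indisulam and 0.06 alone and 13 interaction calls. The lists hold different genes at different levels, and these counts were not compared between lists.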

How the data were processed

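Total RNA of IMR32 cells was sequenced as polyadenylated libraries with paired reads of 150 bases, 4 libraries per treatment, per the labels' protocols. The authors deposited raw counts per gene, whole numbers in 1 table for all 16 libraries. Reads had been handled with featureCounts 2.0.1, HISAT2 2.2.1, Trimmomatic 0.39 and FastQC 0.11.9 (in no stated order) on GRCh38, per the submitters' processing notes. Whether strand was used and how multi-mapped reads were treated is not given in the sources used here, so counts of overlapping and near-identical genes are uncertain. All 58735 genes had the coordinates of GENCODE 29, and 27 names that the table held as dates were restored from gene identifiers.

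Each library was assigned from its label. Genes passing filterByExpr by group were scaled by TMM and fitted in edgeR 4.0.16 (R 4.3.3) with 1 mean per treatment over all 16 libraries, 12 residual degrees of freedom and a prior count of 0.125. All quasi-likelihood tests were two-sided, and p-values were adjusted over 22433 genes. Shares of counts per gene class were compared by exact permutation (scipy 1.17.1). The procedure was tested on simulated counts. Replicates of a group differed by 10.6 to 32.2 times counting noise (chi-square per degree of freedom), so none was a re-sequencing of another. Separate preparations of 1 culture would exceed that noise too.

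Named were, at no overlap of groups, the 14 protein-coding genes with the highest and the 14 with the lowest log2 change at 5 CPM or more, the next 6 in each direction by p at 50 CPM or more, and 6 in each direction among other genes at 1 CPM or more. From each of 44 gene lists (1137 genes, 1135 found) the first 4 called members by p were named, or all where at most 5 were called, and all members of the receptor and MYC lists. This made 214 genes, from which the text takes most; some are not reported here. The members and lists were chosen with earlier results of these data known, so counts on lists are descriptions. Alternatives were DESeq2 1.42.0, median-ratio and upper-quartile scaling, no filter, the compared groups alone, a replicate block, alectinib replicate 1 thinned to the depth of the others, and each library left out in turn. Promoters are the 250 bases before the start in RefSeq, GRCh38.p14.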

Additional observations from a re-analysis of the deposited data

Results flagged for a closer look

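In 188 groups of 4 libraries (depth, class shares, and the leading, receptor and MYC genes), 18 had a library far from the other 3 by Dixon's criterion, where chance alone gives about 1 in 20. Alectinib replicate 1 had 90.2 M counts, against 58.4 to 60.7 M in the other alectinib libraries. Its share of mitochondrially encoded genes was 6.73% (others 5.13% to 5.39%), of processed transcripts 0.324% (0.305% to 0.308%), of pseudogenes 1.12% (others 1.04%) and of protein-coding genes 89.7% (91.3% to 91.5%). Alectinib replicate 2 had an antisense share of 0.571% (others 0.613% to 0.617%), and alectinib replicate 4 had KIAA1324 at 37.5 CPM (others 24 to 25.9 CPM).

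Among DMSO libraries, replicate 1 had an antisense share of 0.529% (others 0.484% to 0.489%), a TEC share (genes the annotation holds as provisional) of 0.0834% (0.0723% to 0.0729%), PDIA4 at 333 CPM (377 to 379 CPM) and PDGFRB at 26.9 CPM (others 23.7 CPM). DMSO replicate 3 had a mitochondrial share of 5.77% (5.23% to 5.28%), HSPA1B at 18.5 CPM (20.5 to 20.9 CPM), RET at 5 CPM (6.2 to 6.42 CPM), FGFR1 at 67.4 CPM (74 to 74.3 CPM), FGFR3 at 1.07 CPM (1.87 to 1.93 CPM) and MXD4 at 82.6 CPM (95.7 to 97.7 CPM). DMSO replicate 4 had ZZEF1 at 118 CPM (109 to 110 CPM).

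Of 82 genes examined for it, 18 had a step that differed between the backgrounds (interaction in edgeR's fit, log2, combination minus indisulam less alectinib minus DMSO). Many of the 82 were chosen by their change in alectinib alone, which is part of this term, so the count is not a rate for other genes. The step was higher on indisulam for AC006128.1 (1.86 ± 0.41, adjusted p = 0.00408), PPP1R15A (1.48 ± 0.23, adjusted p = 0.000188), FAM87A (1.36 ± 0.29, adjusted p = 0.00302), FGFR4 (1.18 ± 0.17, adjusted p = 0.000132), FGFR3 (1.10 ± 0.35, adjusted p = 0.0366), QARS (1.00 ± 0.10, adjusted p = 1.47e-06), APEH (0.79 ± 0.14, adjusted p = 0.00057), HSPA1B (0.74 ± 0.20, adjusted p = 0.0174) and PDIA4 (0.59 ± 0.11, adjusted p = 0.00088). It was lower on indisulam for COL7A1 (-0.74 ± 0.24, adjusted p = 0.041), KIT (-0.66 ± 0.19, adjusted p = 0.0231), EGFR (-0.51 ± 0.11, adjusted p = 0.00279), MYCN (-0.47 ± 0.09, adjusted p = 0.00111), MXI1 (-0.45 ± 0.12, adjusted p = 0.0183), EZH1 (-0.42 ± 0.10, adjusted p = 0.00651), MGA (-0.38 ± 0.09, adjusted p = 0.00467), SRRM2 (-0.31 ± 0.07, adjusted p = 0.00664) and MLXIP (-0.26 ± 0.08, adjusted p = 0.0328). AC006128.1, whose exons overlap AKAP8L, was called in opposite directions, at 0.75 on indisulam and -1.11 alone. FGFR4 was at 1.46 on indisulam and 0.28 alone, and only the first was called.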

How the results depend on the processing

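The count for alectinib against DMSO, 5009 genes, was 5662 with DESeq2, 5037 with median-ratio scaling, 5133 with upper-quartile scaling (4090 of them shared), 4987 without a filter, 6047 with the compared groups alone, 4996 with alectinib replicate 1 thinned, and 3812 to 4813 with 1 library left out. No gene called in common had the opposite sign in any of these. With the replicate number as a block it was 5490. Same-numbered libraries deviated with correlations of 0.042, 0.308, -0.456 and -0.087 over 10351 genes, so the numbers were not taken to pair libraries (alectinib replicates 1, 3 and 4 correlated best with DMSO replicates of other numbers), and the block changed the side of no named gene. The interaction count, 3025, was 3885 with DESeq2.

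Of the 214 named genes, 207 kept their side of the threshold under upper-quartile scaling, 210 without a filter, 211 with the compared groups alone, and 205 to 213 without 1 library. Counts of 5 or more called members that moved by over 1.5 times under upper-quartile scaling were ribosome biogenesis (18 to 6 lower), neurite genes (14 to 8 lower), oxidative phosphorylation (14 to 8 lower), core spliceosome (7 to 16 higher, 5 to 2 lower), lysosome (6 to 12 higher, 8 to 5 lower), FOXO targets (5 to 8 higher) and ZNF genes (70 to 113 higher, 14 to 8 lower). With the compared groups alone, immediate early genes had 14 higher in place of 9, core spliceosome genes 11 in place of 7 and FOXO targets 8 in place of 5. Smaller counts moved too: under upper-quartile scaling ribosomal proteins went to 9 higher in place of 2, SR protein kinases to 5 in place of 3, snoRNA hosts to 5 in place of 3, and RBM39 with its ligase to 4 higher and 0 lower in place of 2 and 2. The cause of these shifts was not tested. Genes under 1 CPM rest on few reads, and the calls of ERBB3 and of the interferon genes were the least stable of those named.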
